A study of Mus musculus with 12 samples.

Results

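Krüppel-like factors (KLFs) are DNA-binding proteins with C-terminal zinc fingers that read GC-rich and CACCC-type sequences, and individual members either activate or repress their targets. The subject here is 8 of the family's genes, namely Klf2, Klf3, Klf4, Klf6, Klf7, Klf9, Klf10 and Klf13. They were chosen by gene symbol, with earlier results of these data known, and all 8 were among the 25738 features tested. In T cells the family is known above all for quiescence and traffic. KLF2 keeps naive T cells in the recirculating pool through targets such as the egress receptor S1pr1, and KLF4 restrains the division of mouse CD8+ T cells. Antigen receptor signals lower both of those transcripts, whereas KLF10 is best known as an early gene of TGF-beta signalling.

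Expression was measured with 12 Agilent 1-colour arrays of CD8+ T cells from female C57BL/6 mice, under a series title that concerns CD8+ T cells of BCD mice. Total CD8+ T cells came from mice labelled AID KO (1 array from mesenteric lymph nodes, MLN, and 1 from peripheral lymph nodes, PLN), from mice labelled uMT (1 MLN and 1 PLN array) and from wild-type (WT) mice (2 MLN and 2 PLN arrays). Naive CD8+ T cells, selected for low CD44, were taken from PLN of uMT and AID KO mice only and split by sorting into a Sca1p and a Sca1m fraction, with 1 array for each of the 4 combinations. These are read here as Sca-1 positive and Sca-1 negative, from the sorting protocol. The uMT mice lack mature B cells. No age is given in the labels, and every direction given for AID KO refers to the arrays labelled AID KO. Per the submitters there are no replicates, and nothing states which arrays came from separate animals. The spread behind each p-value is thus the departure of these samples from an additive fit, which may be technical. Magnetic beads and flow cytometry served to purify the cells, and all values are for bulk RNA, so fewer cells of a type and less RNA per cell cannot be told apart.

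Levels are log2 intensities relative to the 75th percentile of their own array, so a difference of 1 is a 2-fold difference. A level belongs to its probe and was not set against the level of another gene. The arrays were spread over 3 slides of 4 arrays. The first slide held AID KO PLN, uMT MLN, WT PLN replicate 1 and WT MLN replicate 1, and the second held AID KO MLN, uMT PLN, WT PLN replicate 2 and WT MLN replicate 2. The 4 naive arrays shared the third slide, and no direct comparison of naive with total cells was made. The 75th percentile lay between 431.5 and 786.9 intensity units, no spot was saturated, and the total-cell arrays had correlations of 0.983 to 0.992 with arrays of their own slide and of 0.978 to 0.987 with those of the other. Cd8b1, a chain of the CD8 coreceptor, lay between 7.67 and 8.16 on all 12 arrays. Ly6a, which encodes Sca-1, lay at 3.40 and 3.87 in the Sca1p arrays, against 0.03 and -0.10 in the Sca1m arrays. The number of arrays limits the precision of every value below.

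The probes used for the 8 KLF genes were well above background on all 12 arrays. Klf3 and Klf7 each had a second probe that was also well above background on all 12, and a second Klf10 probe was well above background on 0 arrays and was not used. Of the other 9 family members on the array, Klf8, Klf11 and Klf16 passed the filter (well above background on at least 2 arrays), and Klf1, Klf5, Klf12, Klf14, Klf15 and Klf17 did not.

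The 4 members with the largest differences between genotypes in total cells are Klf4, Klf9, Klf6 and Klf2, and the 250 bases upstream of their RefSeq start sites (mouse build GRCm38.p6) are shown because they differ in the sites they hold for regulators of the family. Of the 8 members, 7 had an entry in the promoter table used. The sequences run 5′ to 3′ on the gene's strand and end at the base before the start site. Capitals mark matches, on either strand, to the GC box GGGCGG, the CACCC box CACCC, the cyclic AMP response core TGACG, the FOXO site GTAAACA and a palindromic MEF2 site found only in the Klf2 stretch. Matches that overlap or abut run together in capitals.
Klf4 (chr4:55532476-55532725, minus strand): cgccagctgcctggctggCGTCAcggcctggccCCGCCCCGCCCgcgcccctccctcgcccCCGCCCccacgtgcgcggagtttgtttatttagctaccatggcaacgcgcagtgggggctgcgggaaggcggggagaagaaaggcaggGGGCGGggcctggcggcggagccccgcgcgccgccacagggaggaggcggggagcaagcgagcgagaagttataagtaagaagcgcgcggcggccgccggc
Klf9 (chr19:23140976-23141225, plus strand): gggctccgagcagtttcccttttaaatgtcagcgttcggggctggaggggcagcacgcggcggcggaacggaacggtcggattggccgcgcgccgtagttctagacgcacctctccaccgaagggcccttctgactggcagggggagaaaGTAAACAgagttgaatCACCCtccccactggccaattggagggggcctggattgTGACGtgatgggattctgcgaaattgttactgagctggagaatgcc
Klf6 (chr13:5861239-5861488, plus strand): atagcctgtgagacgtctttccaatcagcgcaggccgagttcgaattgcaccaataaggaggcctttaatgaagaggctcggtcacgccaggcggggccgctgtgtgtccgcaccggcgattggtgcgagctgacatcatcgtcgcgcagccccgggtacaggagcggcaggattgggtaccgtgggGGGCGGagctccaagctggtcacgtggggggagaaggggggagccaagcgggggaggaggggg
Klf2 (chr8:72318812-72319061, plus strand): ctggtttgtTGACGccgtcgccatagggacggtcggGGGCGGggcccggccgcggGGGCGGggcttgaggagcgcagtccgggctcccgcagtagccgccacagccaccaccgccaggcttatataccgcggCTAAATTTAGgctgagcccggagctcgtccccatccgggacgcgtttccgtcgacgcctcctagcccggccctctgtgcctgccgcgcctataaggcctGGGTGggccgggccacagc
The Klf4 stretch held 4 GC boxes, 101 to 217 bases before the start, and 1 cyclic AMP response core 232 bases before it. The Klf2 stretch held 2 GC boxes, 1 CACCC box, 1 cyclic AMP response core and 1 MEF2 site 118 bases before the start. The Klf9 stretch held no GC box, but 1 CACCC box, 1 cyclic AMP response core 46 bases before the start and 1 FOXO site 100 bases before it. The Klf6 stretch held 1 GC box and none of the other 4 motifs. Their G and C content was 74.0% for Klf4, 71.2% for Klf2, 64.8% for Klf6 and 59.6% for Klf9, against a median of 52.4% over all promoters. Over the 32851 promoter stretches of the same length in that table, 32.7% held a GC box, 52% a CACCC box, 17.8% a cyclic AMP response core, 3.17% the FOXO site and 0.0396% the MEF2 site. Of the 7 members with an entry, 6 held a GC box, 5 a CACCC box, 4 a cyclic AMP response core, 1 the FOXO site and 1 the MEF2 site. A match describes the letters only.

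**Figure D1:**
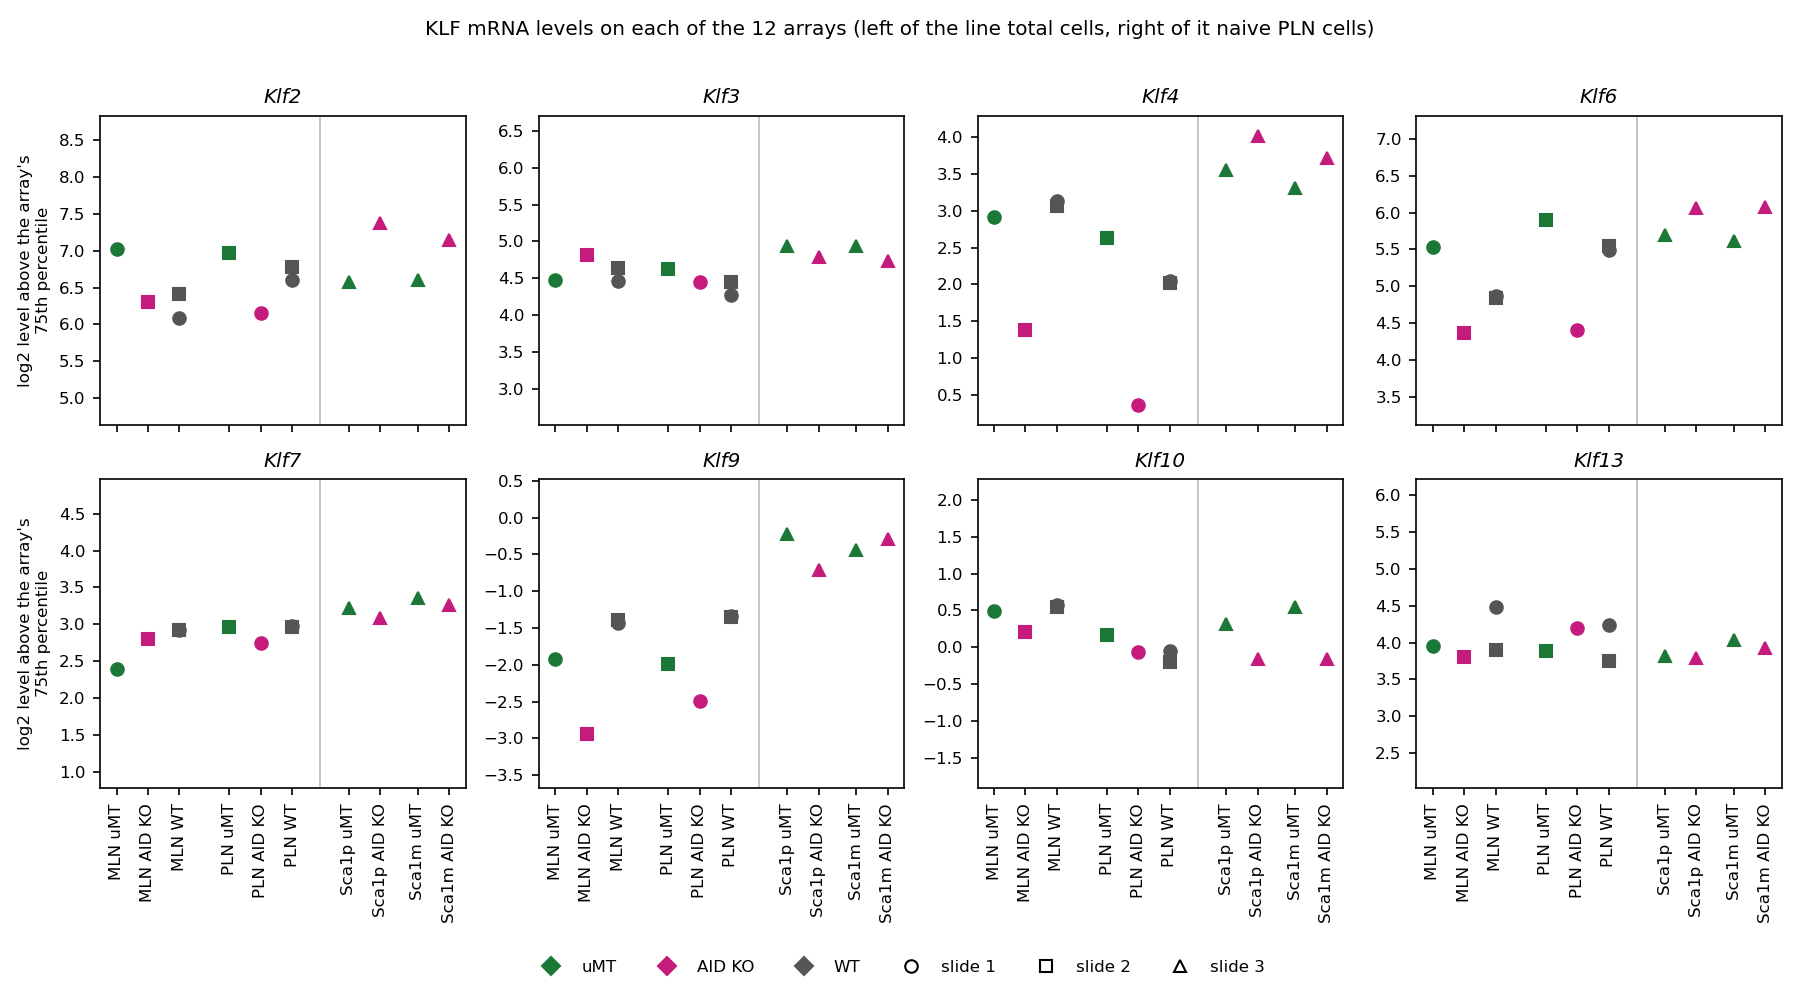
Level of each KLF gene on each of the 12 arrays, as log2 above the array's 75th percentile. Each panel spans the same number of log2 units around its own middle, colours give the genotype and marker shapes the slide. Klf4, Klf6 and Klf9 sit lower in the 2 AID KO arrays of total cells than in any other total-cell array, and Klf4 and Klf6 sit higher in the AID KO than in the uMT arrays of naive cells.

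In the total-cell arrays labelled AID KO, 2 of the 8 KLF genes fell against WT, Klf4 by 3.25-fold and Klf9 by 2.52-fold, and the other 6 did not pass the test. Differences here and below come from 1 limma fit of the 12 arrays that accounts for lymph node and slide. That fit pools the spread of total and naive arrays, so an SE or p-value for naive cells rests in part on the total-cell arrays. A gene is called at an adjusted p (Benjamini-Hochberg, over all features) under 0.05, and the value after ± is the standard error (SE) of the fit. The comparison set 2 AID KO arrays against 4 WT arrays. It called 230 of all 25738 features, a background of 0.894%. In all, 7 of the 8 members had a difference below 0, with a median of -0.21 against 0.01 over all features. In 4 members, Klf4, Klf6, Klf7 and Klf9, both AID KO arrays lay below all 4 WT arrays, as did 8.29% of all features.

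Klf4, whose protein restrains proliferation in CD8+ T cells, had levels of 1.38 in AID KO MLN and 0.36 in AID KO PLN, against 3.13 and 3.07 in the WT MLN arrays and 2.05 and 2.03 in the WT PLN arrays. Both AID KO arrays lay below all 4 WT arrays. The difference was -1.70 ± 0.16 (adjusted p = 0.0184), and it was alike in the 2 within-slide pairs, at -1.69 in MLN and -1.68 in PLN. The 2 WT arrays of the same node, on slides 2 and 1, differed by -0.07 in MLN and -0.02 in PLN. The call was lost when any 1 of the 2 AID KO or 4 WT arrays of total cells was left out, with differences between -1.80 and -1.59 and adjusted p between 0.0522 and 0.314, and it was lost with each array matched to its WT array as a block (-1.69, adjusted p = 0.149).

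Klf9, a GC-box-binding factor that glucocorticoids and thyroid hormone are known to induce, had levels of -2.93 in AID KO MLN and -2.49 in AID KO PLN, against -1.43 and -1.40 in the WT MLN arrays and -1.35 and -1.34 in the WT PLN arrays. Both AID KO arrays lay below all 4 WT arrays, which stood close together. The difference was -1.34 ± 0.15 (adjusted p = 0.0291), with -1.54 in the MLN pair and -1.15 in the PLN pair. It was -0.88 (adjusted p = 0.0111) with normexp background correction. The call was lost when any 1 of the 8 total-cell arrays was left out (-1.53 to -1.14, adjusted p 0.0603 to 0.313) and with the matched-pair block (-1.35, adjusted p = 0.188).

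Klf6, a widely expressed activator that many stimuli induce as an early gene, had levels of 4.36 in AID KO MLN and 4.41 in AID KO PLN, against 4.86 and 4.84 in WT MLN and 5.49 and 5.55 in WT PLN. The AID KO arrays again lay below all 4 WT arrays, more so in PLN (-1.09) than in MLN (-0.48). The fitted difference of -0.80 ± 0.14 did not pass (adjusted p = 0.0748), and it did pass when only probes well above background on all arrays were tested (adjusted p = 0.0301) and in the authors' deposited log2 values (-0.83, adjusted p = 0.0489). The change of the AID KO difference with node was 0.61 ± 0.25 (adjusted p = 1, limma).

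The remaining members showed smaller differences, and none of them passed. Klf2 had levels of 6.31 in AID KO MLN and 6.15 in AID KO PLN, against 6.09 and 6.41 in WT MLN and 6.61 and 6.78 in WT PLN. The groups overlapped, and the difference was -0.24 ± 0.17 (adjusted p = 0.619). Klf7, best known from neurons, lay at 2.80 and 2.75 in AID KO MLN and PLN and at 2.92 to 2.98 in the 4 WT arrays, which it did not overlap, at a difference of only -0.17 ± 0.12 (adjusted p = 0.613). Its second probe gave -0.28 ± 0.19. There the groups did overlap, at -0.89 and -0.27 in AID KO MLN and PLN, against -0.59 to -0.03 in WT. Klf3, a repressor that recruits CtBP, differed by 0.18 ± 0.08 (adjusted p = 0.381), whereas its second probe gave -0.09 ± 0.11, so the 2 probes differ in sign. Klf10 differed by -0.15 ± 0.13 and Klf13, a factor that drives the late expression of Ccl5 in T cells, by -0.09 ± 0.14 (adjusted p = 0.715 and 0.85). For Klf13 the WT array of slide 2 lay below that of slide 1 by 0.58 in MLN and 0.48 in PLN, and the fit subtracts the mean difference between the slides.

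**Figure D2:**
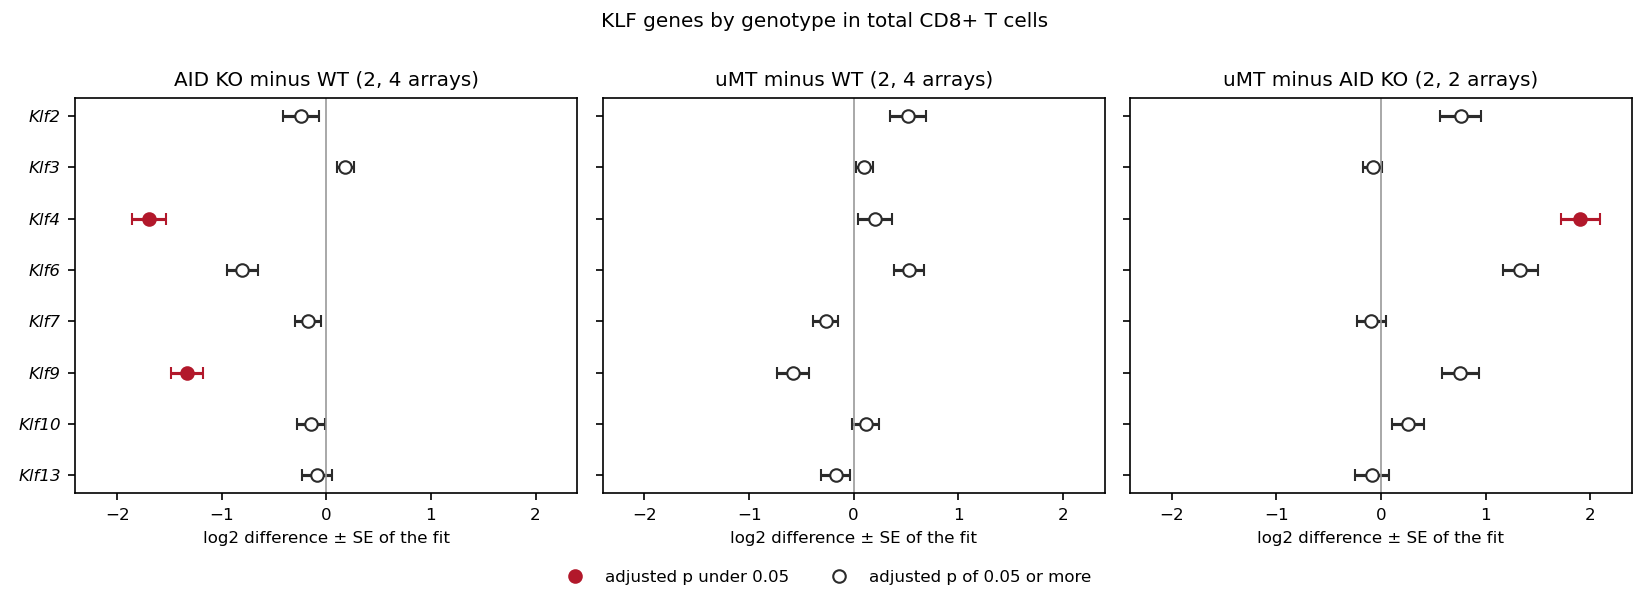
Fitted log2 difference of each KLF gene between genotypes in total CD8+ T cells, as points with the SE of the fit as bars. Filled points passed at an adjusted p under 0.05. Klf4 (-1.70) and Klf9 (-1.34) pass in AID KO minus WT, Klf4 (1.91) passes in uMT minus AID KO, and none passes in uMT minus WT.

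In uMT mice, which lack mature B cells, none of the 8 KLF genes passed against WT in total cells (2 against 4 arrays). The fit called 9 of 25738 features there (0.035%), and 3 members had an unadjusted p under 0.05 in limma, namely Klf9, Klf6 and Klf2, as did 17.8% of all features. The median difference of the members was 0.11, against 0.00 over all features.

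Klf2 lay at 7.02 in uMT MLN and 6.96 in uMT PLN, against 6.09 and 6.41 in WT MLN and 6.61 and 6.78 in WT PLN. Both uMT arrays lay above all 4 WT arrays, as did 10.1% of all features, by 0.93 in the MLN pair of slide 1 and 0.19 in the PLN pair of slide 2, and the fitted difference was 0.52 ± 0.17 (adjusted p = 0.225). Klf6 lay at 5.53 in uMT MLN and 5.89 in uMT PLN, with a difference from WT of 0.53 ± 0.14 (adjusted p = 0.185) and an overlap between the groups. Klf9 lay at -1.92 and -1.99 in uMT MLN and PLN, below all 4 WT arrays (8.95% of all features) and above both AID KO arrays. Its difference from WT was -0.58 ± 0.15 (adjusted p = 0.179).

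Klf4 lay at 2.92 in uMT MLN and 2.63 in uMT PLN, within the range of the WT arrays. The pairs with WT had opposite signs, -0.21 in MLN and 0.60 in PLN, and the fitted difference was 0.21 ± 0.16 (adjusted p = 0.53). The fitted differences of the remaining members were 0.10 ± 0.08 for Klf3, -0.27 ± 0.12 for Klf7, 0.11 ± 0.13 for Klf10 and -0.17 ± 0.14 for Klf13 (adjusted p between 0.315 and 0.674), and all 4 overlapped with WT at the probes used. The second Klf7 probe gave a larger difference, -0.58 ± 0.19. Its levels of -1.13 in uMT MLN and -0.62 in uMT PLN lay below all 4 WT arrays, as did 8.95% of all features. The second Klf3 probe gave 0.04 ± 0.11. The change of the uMT difference with node was -0.82 ± 0.17 for Klf4 (adjusted p = 0.483, limma). It was 0.74 ± 0.27 for Klf2, -0.66 ± 0.18 for Klf13 and -0.54 ± 0.17 for Klf7 (adjusted p = 0.53, 0.507 and 0.528), and none passed, against 2 features called of 25738 (0.00777%).

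**Figure D3:**
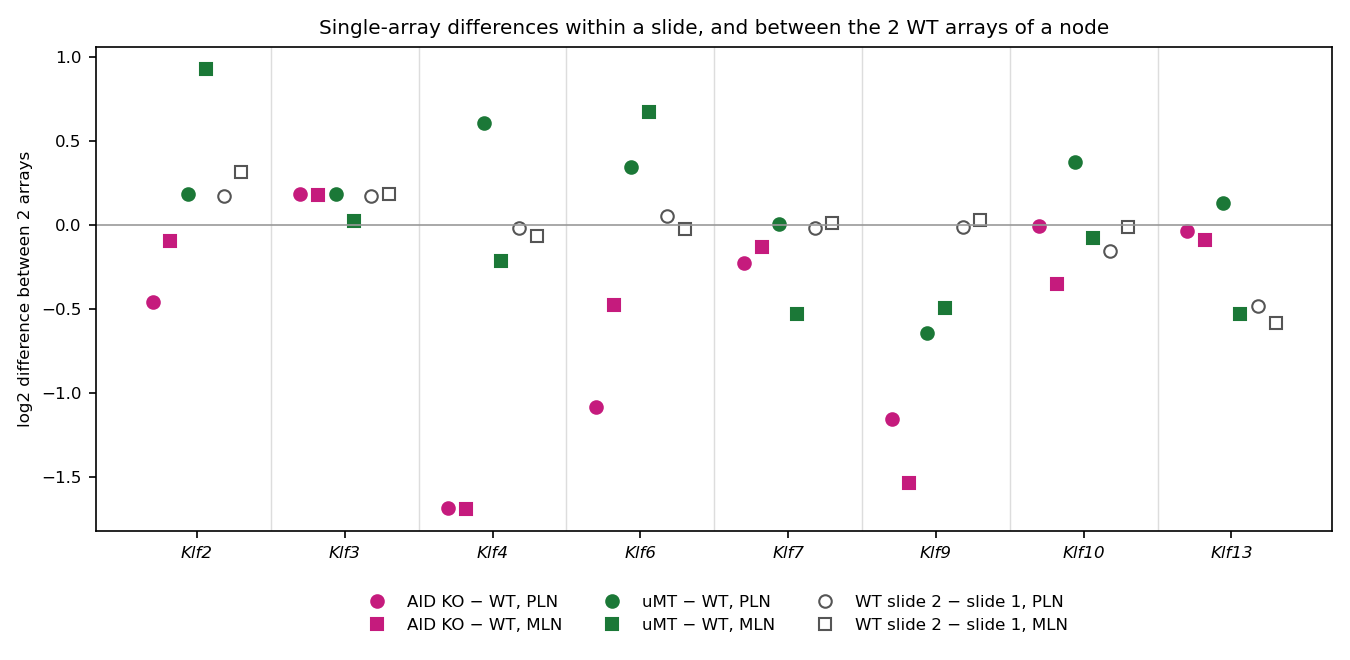
Log2 difference of each KLF gene between single arrays. Filled points set an AID KO or uMT array against the WT array of the same node and slide, and open points set the WT array of slide 2 against that of slide 1. For Klf4 and Klf9 both AID KO points lie at or below -1.15, while the open points of those genes lie near 0. For Klf13 the open points (-0.48 and -0.58) lie on either side of the lowest genotype point (-0.53).

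Set directly against each other in total cells, uMT and AID KO arrays (2 against 2) differed in Klf4, which was 3.75-fold higher in uMT. Klf4 was the 1 member called of 8, against 81 of 25738 features (0.315%). Its difference was 1.91 ± 0.19 (adjusted p = 0.0373). Klf6 came next at 1.33 ± 0.17 (adjusted p = 0.0569), followed by Klf2 at 0.76 ± 0.20 and Klf9 at 0.76 ± 0.18 (adjusted p = 0.228 and 0.195). For these 4 genes both uMT arrays lay above both AID KO arrays, as did 14.4% of all features. Klf10 differed by 0.26 ± 0.15 (adjusted p = 0.564), Klf3 by -0.08 ± 0.09, Klf7 by -0.09 ± 0.14 and Klf13 by -0.08 ± 0.16 (adjusted p between 0.784 and 0.887). The second Klf3 probe had the other sign, at 0.14 ± 0.13, and the second Klf7 probe gave -0.29 ± 0.21. The comparison shares its arrays with the 2 before it, so it is not separate evidence. The Klf4 call was lost when any 1 of the 12 arrays was left out (1.50 without uMT PLN to 2.32 without uMT MLN, adjusted p 0.0518 to 0.458) and with the matched-pair block (1.88, adjusted p = 0.454). Klf6 passed in 3 alternatives, with adjusted p of 0.0115 with normexp, 0.0181 with probes well above background on all arrays and 0.0481 in the authors' deposited log2 values.

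The same 2 genotypes were compared in naive cells. In naive PLN cells, none of the 8 members passed in uMT against AID KO (2 against 2 arrays, 90 of 25734 features called, 0.35%), and 2 members, Klf10 and Klf2, had an unadjusted p under 0.05 in limma, as did 8.91% of all features. Klf2 lay at 6.58 and 6.61 in the Sca1p and Sca1m uMT arrays, against 7.38 and 7.15 in the Sca1p and Sca1m AID KO arrays, a difference of -0.67 ± 0.20 (adjusted p = 0.358). Klf4 lay at 3.55 and 3.32 in uMT, against 4.02 and 3.72 in AID KO, a difference of -0.44 ± 0.19 (adjusted p = 0.592). Klf6 lay at 5.70 and 5.62 in uMT, against 6.06 and 6.07 in AID KO, a difference of -0.41 ± 0.17 (adjusted p = 0.561). For these 3 genes both uMT arrays lay below both AID KO arrays, as did 13.7% of all features. In total cells both uMT arrays of the same 3 genes lay above both AID KO arrays, and 2.23% of all features combined these orders.

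Klf10, the TGF-beta inducible member, lay at 0.32 and 0.54 in the Sca1p and Sca1m uMT arrays, against -0.16 and -0.16 in the AID KO arrays, a difference of 0.59 ± 0.15 (adjusted p = 0.284). Klf3 also lay higher in both uMT arrays, at 4.94 in each, against 4.79 and 4.73 in AID KO, a difference of 0.18 ± 0.09 (adjusted p = 0.675). Of all features, 17.2% lay above AID KO in both uMT arrays. Its second probe gave 0.40 ± 0.13 in the same direction. Klf9 overlapped between the genotypes, at -0.23 and -0.44 in uMT, against -0.71 and -0.29 in AID KO, a difference of 0.17 ± 0.18 (adjusted p = 0.941). Klf7 differed by 0.12 ± 0.14 and Klf13 by 0.07 ± 0.16 (adjusted p = 0.964 and 0.998), and both overlapped. The second Klf7 probe gave -0.01 ± 0.21.

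The difference between total and naive cells in the uMT minus AID KO contrast was tested in the same fit, in a contrast chosen after the values were seen. It was 2.35 ± 0.27 for Klf4 (adjusted p = 0.0534), 1.74 ± 0.24 for Klf6 (adjusted p = 0.0787) and 1.43 ± 0.28 for Klf2 (adjusted p = 0.143), all in limma. None of the 8 passed, against 55 of 25734 features called (0.214%). Cell selection and slide both separate these 2 sets of arrays, and so does node, since only the total cells include MLN. These cannot be told apart.

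Between the Sca-1 fractions no KLF gene passed. Sca1p minus Sca1m differences ran from -0.18 to 0.27 over the 8 members, with 0 called by limma, 0 at an unadjusted p under 0.05 and a lowest adjusted p of 0.782, against 4 of 25737 features called (0.0155%). The widest was Klf4, at 0.27 ± 0.19, with 4.02 and 3.55 in the AID KO and uMT Sca1p arrays, against 3.72 and 3.32 in the AID KO and uMT Sca1m arrays. Klf4 was higher in Sca1p within each genotype, although the fractions overlapped across genotypes. Klf7 and Klf13 were lower in Sca1p within each genotype, with differences in AID KO and uMT cells of -0.18 and -0.13 for Klf7 and of -0.13 and -0.22 for Klf13, and for both genes the Sca1p arrays lay below both Sca1m arrays, as did 17.1% of all features. Their fitted differences were -0.16 ± 0.14 and -0.18 ± 0.16 (adjusted p = 0.841 and 0.847). Those of Klf2, Klf3 and Klf6 lay between 0.03 and 0.10, and Klf9 and Klf10 differed by -0.10 ± 0.18 and -0.11 ± 0.15. Second probes gave 0.22 ± 0.13 for Klf3 and -0.18 ± 0.21 for Klf7. Klf9 had the largest change of the Sca-1 difference with genotype, 0.63 ± 0.26 (adjusted p = 0.454, limma; 23 of 25596 features called, 0.0899%). Cxcr3, a chemokine receptor that rises on T cells lacking KLF2, was higher in Sca1p by 2.13 ± 0.11 (adjusted p = 0.0205). Its difference stayed between 2.01 and 2.26 without any 1 array, but the call was lost in 10 of those 12 fits (adjusted p 0.0213 to 0.129 over all 12), with the matched-pair block (adjusted p = 0.137), in naive arrays alone (adjusted p = 1) and with no filter (adjusted p = 0.094). Cxcr3 is also on the list of 11 effector and memory markers, of which 8 had differences above 0 in Sca1p (median 0.58, 1 called) and whose sums were 30.4 to 32.3 in Sca1p, against 26.4 in both Sca1m arrays. Their part in the Sca-1 differences was not tested. Klf2 itself lay at 7.38 and 6.58 in Sca1p, against 7.15 and 6.61 in Sca1m, in AID KO and uMT. Before scaling, its rounded intensity was the same in both fractions, at 82800 in AID KO and 58300 in uMT. Its levels differ between the fractions through the 75th percentiles of Sca1p and Sca1m. These were 498.4 and 582.3 in AID KO, and 609.4 and 598.2 in uMT.

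**Figure D4:**
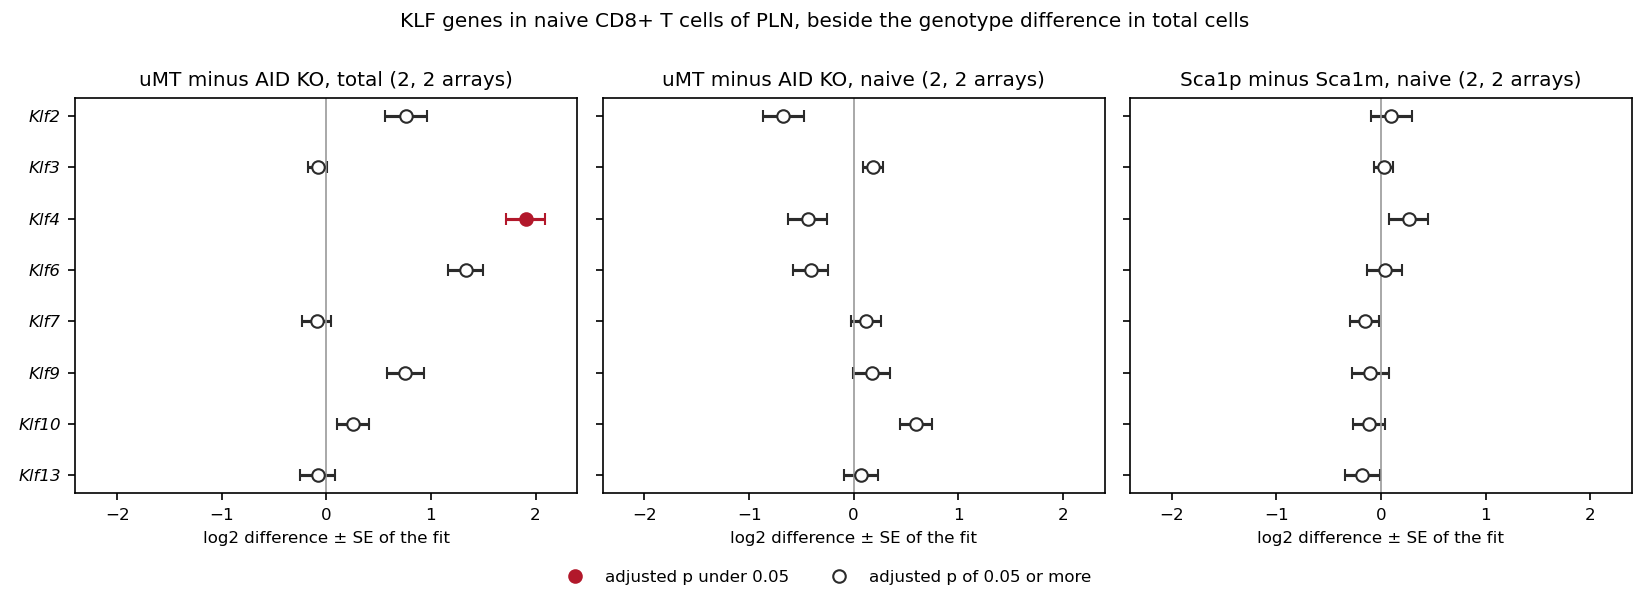
Fitted log2 difference of each KLF gene for uMT minus AID KO in total cells, uMT minus AID KO in naive cells, and Sca1p minus Sca1m in naive cells, with the SE of the fit as bars. Filled points passed at an adjusted p under 0.05. Klf2, Klf4 and Klf6 lie right of 0 in total cells (0.76, 1.91 and 1.33) and left of it in naive cells (-0.67, -0.44 and -0.41).

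Mesenteric nodes drain the gut, and total cells from MLN were set against those from PLN (4 against 4 arrays). None of the 8 members passed, while 27 of 25738 features did (0.105%), and Klf4, Klf10 and Klf6 had an unadjusted p under 0.05 in limma, as did 9.13% of all features. Klf4 was higher in MLN by 0.86 ± 0.13 (adjusted p = 0.139). Within a slide, WT MLN exceeded WT PLN by 1.09 and 1.04, and across slides the difference was 1.01 in AID KO and 0.29 in uMT. Klf4 passed with normexp (0.86, adjusted p = 0.0318) and without either uMT array (1.06, adjusted p = 0.048).

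Klf10 was the 1 member whose MLN arrays all lay above its PLN arrays, as did 1.16% of all features, at 0.20 in AID KO, 0.49 in uMT and 0.57 and 0.55 in WT, against -0.06 in AID KO, 0.17 in uMT and -0.05 and -0.20 in WT. Its difference was 0.49 ± 0.11 (adjusted p = 0.266). Klf6 went the other way, at -0.44 ± 0.12 (adjusted p = 0.349), with -0.63 and -0.71 in the WT pairs within a slide. Across slides it differed by -0.36 in uMT and -0.05 in AID KO. Over all features the median across-slide difference was -0.11 in uMT and 0.09 in AID KO. Klf2 differed by -0.17 in the fit (adjusted p = 0.807), and by -0.52 and -0.37 in the WT pairs. Klf3 differed by 0.15 ± 0.07, Klf7 by -0.16 ± 0.10, Klf9 by -0.13 ± 0.12 and Klf13 by 0.01 ± 0.12 (adjusted p between 0.577 and 0.99), and their nodes overlapped. Second probes gave 0.05 ± 0.09 for Klf3 and -0.30 ± 0.15 for Klf7. The 3 erythroid markers kept of 7 summed to between 1.94 and 8.79 times the 75th percentile in MLN, against 0.151 to 1.31 in PLN, with a median difference of 3.18 and 0 of 3 called. Their part in these differences was not tested.

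Lists of genes that act around the KLFs held few calls, apart from the immediate early genes. Of 10 regulators upstream of Klf2 (FOXO factors, the ERK5 cascade and MEF2 factors) 8 were kept, and 0 were called in any of the 6 comparisons by limma. The same held for the 9 corepressors and coactivators kept of 10, the 5 Sp factors kept of 9, the 3 other KLF genes and the 10 TGF-beta genes tied to KLF10 and KLF6. Of 9 genes tied to KLF2 in T cells, 1 was called, Cxcr3 between the Sca-1 fractions as given above.

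The T cell trafficking genes S1pr1, Ccr7 and Itgb7 did not pass in any comparison. S1pr1 lay at 4.90 in uMT MLN and 4.77 in uMT PLN, against 4.31 and 4.47 in WT MLN and 4.73 and 4.62 in WT PLN, a difference of 0.30 ± 0.12 (adjusted p = 0.277). All uMT values lay above all WT values, as did 10.1% of all features, Klf2 among them. In naive cells S1pr1 overlapped between the genotypes, whereas Klf2 lay lower in both uMT arrays. S1pr1 lay there at 4.87 and 4.76 in the Sca1p and Sca1m uMT arrays, against 4.75 and 4.81 in those of AID KO. In AID KO against WT the difference of S1pr1 was -0.01 ± 0.12 (adjusted p = 0.992). The homing receptor Ccr7 differed by 0.17 ± 0.09 in uMT against WT and by -0.17 ± 0.09 in AID KO against WT (adjusted p = 0.368 and 0.484). Itgb7, an integrin chain of gut-homing T cells, was 0.31 ± 0.07 higher in MLN than in PLN (adjusted p = 0.247).

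In AID KO against WT, 7 cell cycle genes tied to KLF4, KLF6 and KLF10 had differences from -1.92 to 0.26 (median -0.10). The gene at -1.92 was not called. Of the 7, 1 fell, where 0.894% of all features were called. That gene was Cdkn1c, which encodes the cyclin-dependent kinase inhibitor p57, at -3.35 in AID KO MLN and -3.62 in AID KO PLN, against -2.27 and -2.38 in WT MLN and -2.58 and -2.96 in WT PLN. Its difference was -0.94 ± 0.13 (adjusted p = 0.0481), and -0.55 (adjusted p = 0.0388) with normexp background correction. The call was lost when any 1 of the 12 arrays was left out (-1.02 to -0.90). It was also lost with the matched-pair block (adjusted p = 0.207), under quantile normalization (0.067) and with no filter (0.144). The same held with the mean of kept probes (0.0513), with no slide term (0.0801) and in total arrays alone (0.0608).

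Immediate early genes are those that cells transcribe within minutes of a stimulus without new protein synthesis. Of 24 tested, 10 fell in AID KO against WT, where Klf4 and Klf9 also fell, 0 rose and 14 did not pass, with a median of -0.50. Of all features, 0.894% were called there in either direction, with a median difference of 0.01. Dusp1, a phosphatase of MAP kinases, fell by 1.66 ± 0.10 (adjusted p = 0.00509), and Tnfaip3, a brake on NF-kappa-B, by 1.94 ± 0.11 (adjusted p = 0.00473). The AP-1 subunits Fos, Jun, Junb and Fosl2 also fell, with differences of -1.40, -1.07, -1.23 and -1.34 (adjusted p between 0.0063 and 0.0343). Egr1 was among the 14, at -0.05 ± 0.11 (adjusted p = 0.896). Leaving out either AID KO array left 0 of the 24 called, and leaving out any 1 WT array left 2 to 4.

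In uMT against AID KO in total cells, 6 of the 24 rose, with a median of 0.70, and in uMT against WT 0 passed in limma, with a median of 0.11. Of all features, 0.315% and 0.035% were called in these comparisons, with median differences of -0.009 and -0.004. The 6 included Dusp1 (2.30 ± 0.12, adjusted p = 0.00567), Fos (1.76 ± 0.13) and Jun (1.16 ± 0.12), and leaving out any 1 of the 12 arrays left 0 to 4 called. In naive cells 0 of the 24 passed in uMT against AID KO. The summed level of the 24, in multiples of each array's 75th percentile, was 410 to 475 in the AID KO arrays, 821 to 826 in the uMT arrays and 696 to 786 in the WT arrays of total cells. In naive cells it was 974 to 1050 in uMT and 1080 to 1130 in AID KO. The part of handling, sorting time or RNA quality in these values was not tested.

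**Figure D5:**
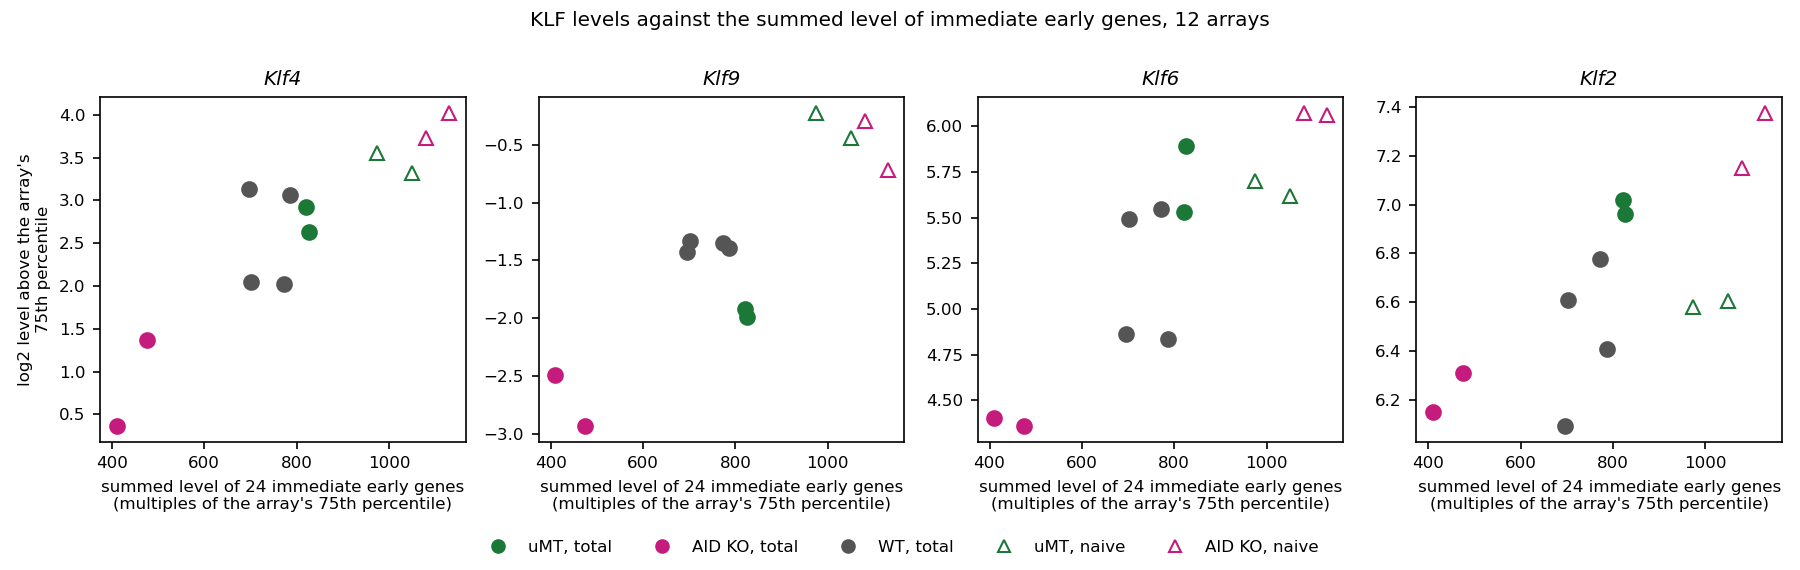
Log2 level of Klf4, Klf9, Klf6 and Klf2 against the summed level of the 24 immediate early genes on each of the 12 arrays. Filled circles are total cells and open triangles naive cells, coloured by genotype. The 2 AID KO arrays of total cells lie at the low end of the summed level (410 to 475), where Klf4, Klf9 and Klf6 are lowest, and the naive arrays lie on a separate slide at 974 to 1130.

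Likeness to other genes was described over the 8 total-cell arrays, after the mean of each slide was subtracted, among 11487 named genes well above background on all arrays. These 8 points share 2 slides and 3 genotypes, so no p-value is given. Klf4 ran closest to Arc (Pearson's r = 0.996), known from neurons as an immediate early gene, and to the kinase gene Pim1 (0.985). Arc lay at -1.15 in AID KO MLN and -1.27 in AID KO PLN, below its levels of 0.41 and -0.09 in WT MLN and -0.35 and -0.68 in WT PLN. Klf10 ran closest to the importin gene Kpnb1 (0.993) and to the immediate early gene Egr1 (0.981). Klf6 ran closest to Rnf7 and Eif4a2 (0.994 each), Klf2 to Hmgn2 (0.99) and Fam241a (0.988), and Klf9 to Chrne (0.984) and Tspan4 (0.982). Klf3 ran closest to Ccdc51 (0.986) and E2f2 (0.975), Klf7 to 1700110I01Rik (0.995) and Exoc6b (0.988), and Klf13 to Foxp4 and Sf3b3 (0.989 each).

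Within the family, the closest pair over the same arrays was Klf2 and Klf6 (r = 0.88), followed by Klf7 and Klf13 (0.79) and Klf4 and Klf10 (0.721). Klf9 lay nearest to Klf4 (0.658) and farthest from Klf3 (-0.763). The median correlation with the 24 immediate early genes was 0.786 for Klf4, with 22 of 24 above 0, and 0.608 for Klf9, with 20 of 24 above 0. It was 0.429 for Klf6, 0.374 for Klf10, 0.364 for Klf2, 0.0529 for Klf13, -0.047 for Klf7 and -0.26 for Klf3. No median over all features is given beside these. The arrays are those in which Klf4, Klf9 and 10 of the 24 genes fell in AID KO, so the correlations are not separate evidence.

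Markers of other cells were set beside these results. The 8 CD8 T cell markers summed to between 859 and 888 in AID KO, 871 and 936 in uMT, and 760 and 947 in WT arrays of total cells, and 0 of them were called between genotypes. Of 8 B cell markers 5 were kept, and the other 3, Ms4a1 and Blk among them, were well above background on fewer than 2 arrays. The 5 had differences above 0 in AID KO against WT (median 0.26, 0 called), with sums of 6.34 to 7.05 in AID KO, 5.14 to 5.93 in uMT and 4.4 to 5.28 in WT. The 3 erythroid markers had differences above 0 in uMT against WT (median 1.82) and in uMT against AID KO in total cells (median 2.03), with 0 called in either, and summed to 1.31 to 8.79 in uMT, 0.358 to 1.94 in AID KO and 0.151 to 4.54 in WT. Heat shock chaperones summed to 188 to 199 in AID KO, 203 to 220 in uMT and 195 to 220 in WT, with 0 of 9 called in AID KO against WT. Among 11 effector and memory markers, Ifng fell in AID KO against WT by 1.47 ± 0.16 (adjusted p = 0.0257), and the sums were 88.3 to 106 in AID KO, 104 to 112 in uMT and 90.6 to 100 in WT. In uMT against WT, the 3 CD4 T cell markers kept of 4 had differences above 0 (median 0.41, 0 called). Of 4 NK markers kept of 5, 3 did (median 0.51, 0 called). The 4 summed to 71.2 to 72.8 in uMT, against 75.8 to 87.6 in WT. Dendritic, myeloid and stroma markers had medians of -0.03, -0.24 and -0.04 in that comparison, with 0 called. The part of these markers in the KLF differences was not tested.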

How the data were processed

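Per the file headers, spot intensities in the deposited scanner files were made with Agilent Feature Extraction 11.0.1.1, and the submitters' notes on processing name that version too. Their processed intensity is background-subtracted by that software and not normalized between arrays. The other values used from the deposited files are flags for outlying, saturated or well-above-background spots. The authors' deposited series matrix holds log2 values of 28384 probes. Set against the scanner files, it was quantile normalized within each slide, with medians of 9.47, 8.59 and 8.99, so it served as an alternative only. All of its columns were mapped to samples.

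Log2 processed intensities were shifted to a common 75th percentile per array. Outlier-flagged spots, 61 to 342 per array, were left out, and probes well above background on at least 2 of 12 arrays were kept. Of 56605 probes, 32994 had 1 symbol through the RefSeq table of GRCm38.p6, 0 had several and 23611 had none and kept their probe names. Each gene was represented by its brightest kept probe. One fit with limma 3.58.1 in R 4.3.3 covered all arrays, with an intercept each for total and naive cells. Terms for total cells were node, slide and both genotypes, and those for naive cells were uMT and Sca1p. It left 4 residual degrees of freedom, or 3 with an interaction term. Tests were two-sided, and the procedure was tested on simulated data. The labels name the matching WT control only for PLN, so each MLN array was paired with the WT MLN array of its slide. Background correction by normexp (offset 50) used the median signal of each spot, the raw signal in these files.

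All 8 KLF genes are described in every comparison. From each other list, up to 4 genes that passed are named per comparison in order of p, and Fos, Jun, Junb, Egr1, Dusp1, S1pr1, Ccr7 and Itgb7 whatever their values. For each KLF gene the 2 most correlated named genes are given. Arc's levels were added after its values were seen. Members and lists were chosen with earlier results of these data known. Promoter sequences are RefSeq's. Some genes are not reported here.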

Additional observations from a re-analysis of the deposited data

How the results depend on the processing

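The 48 differences of KLF genes were recomputed in up to 21 ways, giving 1000 values. Direction and side of the threshold were kept in 928, the call was lost in 33 and gained in 8, and the sign turned in 31, none of them called. The cause of each change was not tested, except that fewer or more features enter the adjustment under the filters and fewer arrays enter the fits without an array. For AID KO versus WT, 230 features were called (59 higher, 171 lower), with 367 under normexp, 582 with probes well above background on all arrays, 49 with no filter, 424 (180 higher, 244 lower) in the authors' deposited values, 86 with no slide term, 15 with the matched-pair block and 1 to 163 without 1 array. KLF genes called were 2, with 0 under no filter, 0 under the block and 0 to 2 without 1 array. For uMT versus WT, 9 were called (4 higher, 5 lower), with 53 (31 higher, 22 lower), 91, 0, 26, 2 and 4 in the same order, 20 under quantile normalization and 0 to 9 without 1 array. For uMT versus AID KO in total cells, 81 were called, with 162 under normexp, 188 on all arrays, 18 with no filter, 30 with no slide term, 1 with the block, 37 in total arrays alone and 1 to 37 without 1 array. KLF genes called were 1, with 2 under normexp, 2 on all arrays, 2 in the deposited values, 0 with no filter, 0 with the block, 0 in total arrays alone and 0 without any 1 array. For MLN versus PLN, 27 were called, with 61 under normexp, 73 on all arrays, 16 with no filter, 44 in the deposited values and 2 to 24 without 1 array, and KLF genes called were 0, with 1 under normexp and 0 to 1 without 1 array. For Sca1p versus Sca1m, 4 were called (3 higher, 1 lower), with 11 under normexp, 18 (8 higher, 10 lower) under quantile, 22 on all arrays, 0 with no filter, 8 (4 higher, 4 lower) in the deposited values, 2 with no slide term, 0 with the block, 0 in naive arrays alone and 0 to 173 without 1 array. For uMT versus AID KO in naive cells, 90 were called (43 higher, 47 lower), with 29 under normexp, 24 on all arrays, 10 (6 higher, 4 lower) in the deposited values, 57 with no slide term, 39 with the block, 0 in naive arrays alone and 25 to 213 without 1 array.

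Signs turned as follows, with the range of each difference over fits without 1 array. In AID KO versus WT, Klf10 ran from -0.32 to 0.026 (above 0 without AID KO MLN) and Klf13 from -0.16 to 0.0063 (without WT MLN replicate 1). In uMT versus WT, Klf4 ran from -0.20 to 0.62 and Klf10 from -0.11 to 0.34 (both below 0 without uMT PLN), Klf13 from -0.51 to 0.16 and Klf7 from -0.54 to 0.00099 (both above 0 without uMT MLN). In uMT versus AID KO in total cells, Klf13 ran from -0.42 to 0.25, Klf7 from -0.36 to 0.18 and Klf3 from -0.16 to 0.0012 (all above 0 without uMT MLN), and Klf3 was 0.027 with the mean of its probes. In MLN versus PLN, Klf13 ran from -0.084 to 0.18, below 0 without either WT PLN array or WT MLN replicate 1. In Sca1p versus Sca1m, Klf2 ran from -0.025 to 0.22, and was -0.052 under quantile and -0.031 in the deposited values. Klf3 ran from -0.00059 to 0.054, and was -0.13 under normexp, -0.0017 under quantile and -0.0039 in the deposited values. Klf6 ran from -0.010 to 0.080, and was -0.12, -0.014 and -0.046 in those 3 settings, and Klf9 ran from -0.42 to 0.21. In naive uMT versus AID KO, Klf9 ran from -0.15 to 0.49. No paired analysis by replicate number was possible because the labels give none, and the block that matches each array to a WT array has no value for MLN versus PLN.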
